A study of Mus musculus with 8 samples.

Results

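C/D box small nucleolar RNA (snoRNA) genes were examined in resting B and T cells of mouse spleen. The members were all genes whose mouse symbol is Snord followed by a digit, which gave 99 of the 53801 Ensembl gene IDs counted in every library. The cells came from B6 mice, were sorted magnetically and were kept for 2 hours at rest in complete RPMI medium. There were 8 libraries, 2 for each of B cell footprints, T cell footprints, B cell RNA-seq and T cell RNA-seq. Footprints are the RNA fragments that stay protected in monosomes after nuclease treatment, and the cells for them were first given cycloheximide at 100 µg/ml for 15 minutes. The RNA-seq libraries were prepared with TruSeq RNA v2 chemistry, a method that captures polyadenylated RNA, and sequenced from both ends, whereas footprints were read from a single end. No treatment other than the assay's own separated the groups, and each B or T group was a magnetically enriched total population, not a subset. The B cell libraries are numbered 1 and 3 in both assays, the T cell footprint libraries 1 and 2 and the T cell RNA-seq libraries 1 and 4. The sources do not say that libraries of a group came from separate mice, so each p-value measures the spread between these libraries, which may be technical.

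C/D box snoRNAs are short nuclear RNAs named for a pair of conserved sequence boxes, C and D. Bound by fibrillarin (Fbl), Nop56, Nop58 and Snu13, most of them base-pair with ribosomal RNA and direct the methylation of a ribose at the paired site, while a few act in the cutting or folding of the ribosomal RNA precursor. In mammals most are released from introns of host genes, many of which encode ribosomal proteins or noncoding RNAs, and they carry no poly(A) tail. H/ACA box snoRNAs, the sister class, guide pseudouridylation. These are general facts and not results of these libraries.

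Host genes were taken as the RefSeq genes whose span on GRCm38.p6, the mm10 build, contains a member. A RefSeq entry was found for 92 members. Of the 99 members, 22 lay in a ribosomal protein gene, 30 in another protein-coding gene, 30 in a noncoding gene and 7 in several genes at once. There were 3 members with no containing gene, Snord118, Snord13 and Snord89, and 7 without a RefSeq entry. Snord118 makes the U8 RNA, which acts in processing of the large-subunit ribosomal RNA, and Snord13 makes the U13 RNA, which acts on the small-subunit ribosomal RNA. The containing genes numbered 58, and 16 of them held several members.

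The start sites of host genes are shown because many snoRNA host genes belong to the terminal oligopyrimidine class, whose transcripts begin with a C followed by a run of pyrimidines. Each line gives 15 bases before a RefSeq start and the first 15 transcribed bases, 5′ to 3′ on the gene's own strand from RefSeq GRCm38.p6, with the first 5 transcribed bases in capitals. Gm36220 contains Snord104, Snx5 contains Snord17, 2410006H16Rik contains Snord49a, Snord49b and Snord65, Atp5b contains Snord59a and Rps3a1 contains Snord73a. Gas5 is a noncoding host whose transcript is a textbook member of the class.
Gas5, chr1:161035151-161035180, plus strand: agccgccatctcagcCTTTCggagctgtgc
Gm36220, chr11:106500900-106500929, plus strand: cacgtccattccggcCTCTTatcgacgggg
2410006H16Rik, chr11:62602862-62602891, plus strand: tcacgcgccgtctttCTCTGcggccatcat
Atp5b, chr10:128083292-128083321, plus strand: ccgcttcggcgctcaGTCTCcacccggatt
Snx5, chr2:144270558-144270587, minus strand: ctgctgggatggtggCGGAGtcccgcggcc
Rps3a1, chr3:86142654-86142683, minus strand: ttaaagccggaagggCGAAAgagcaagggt

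A start with C followed by 4 bases that are each C or T was present in 4 of 45 host genes with an entry, or 8.89%, against 813 of 27025 genes in the table, or 3.01%. The 4 were Gas5, Gm36220, 1110038B12Rik and Rack1, and by class they were 3 of 14 noncoding hosts, 0 of 9 ribosomal protein hosts and 1 of 22 other protein-coding hosts. The gene's own strand alone was searched, at the annotated starts, and a gene counted if any of its starts matched. Of the host genes 3 had 2 annotated starts, and Gas5 and 1110038B12Rik matched at 1 of theirs. No match in this window says only that these letters are absent from it.

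Footprint libraries held 136433 to 627833 counts and RNA-seq libraries 8945905 to 10050986. A single count stood for 1.51 to 6.67 CPM (counts per scaled library total, with TMM factors, times 1e+06) in footprints and for 0.106 to 0.114 CPM in RNA-seq. The 10 B cell markers, Ms4a1 and Cd79a among them, summed to 10300 to 16100 CPM in B cell footprints and 231 to 647 CPM in T cell footprints. The 10 T cell markers, Cd3e and Lck among them, summed to 4400 to 6870 CPM in T cell footprints and 97.5 to 268 CPM in B cell footprints. The RNA-seq libraries divided in the same direction, but B cell library 3 held 618 CPM of T cell markers against 82.9 CPM in library 1. In edgeR 10 of 10 T cell markers were lower in B cell footprints and 2 of 10 in B cell RNA-seq, where 4.8% and 9.06% of all genes were. The 6 myeloid markers summed to 158 and 582 CPM in B cell footprint libraries 1 and 3 and to 222 and 313 CPM in T cell footprint libraries 1 and 2. The 5 erythroid markers stayed at 18.2 CPM or less in all 8 libraries.

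Counts were found for 41 of the 99 members, or 41.4%, against 46.0% of all gene IDs. Both assays detected 31, footprints alone detected 7 and RNA-seq alone detected 3. The footprint-only members were Snord59a, Snord85, Snord61, Snord92, Snord71, Snord90 and Snord93, and the RNA-seq-only members were Snord58b, Snord53 and Snord42b. All 18 members inside Snhg14, the imprinted noncoding host of the Snord116 copies, had no count in any library, although Snhg14 itself had 64 to 79 counts in each RNA-seq library. The Snord116 genes are near-identical copies, and the sources do not say how reads that match several places were treated, so their counts are uncertain. Outside Snhg14, 41 of 81 members were detected. By host class these were 13 of 22 in ribosomal protein genes, 15 of 30 in other protein-coding genes, 4 of 12 in noncoding genes, 6 of 7 in several genes and 3 of 3 without a containing gene, while none of the 7 without a RefSeq entry was detected. Detected members had a median length of 68 bases against 72 bases for undetected members outside Snhg14 with a known length.

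Members summed to 5446 counts in the 4 footprint libraries and to 1125 in the 4 RNA-seq libraries, although the RNA-seq libraries were far deeper. In B cell footprints they took 0.167% of all gene counts in library 1 (396 of 236810 counts, 95% Clopper-Pearson interval 0.151 to 0.185%) and 0.451% in library 3 (1050 of 232568, 0.425 to 0.48%). In T cell footprints they took 0.548% in library 1 (3443 of 627833, 0.53 to 0.567%) and 0.408% in library 2 (557 of 136433, 0.375 to 0.444%). B cell library 1 therefore stood below the other 3 footprint libraries, whose intervals lay well above its own. In RNA-seq the share was 0.00292% and 0.00234% in the B cell libraries and 0.00334% and 0.00339% in the T cell libraries. These intervals, and the limits based on a count of 0 below, cover counting error only.

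The mean share was 0.309% ± 0.201 (SD, n = 2) in B cell footprints and 0.00263% ± 0.00041 (SD, n = 2) in B cell RNA-seq, a ratio of 118 ± 78.7. It was 63.7 without footprint library 3 and 76.9 without Snord43, the member with the most counts. In T cells the means were 0.478% ± 0.0991 and 0.00336% ± 3.12e-05 (SD, n = 2 each), a ratio of 142 ± 29.5. Without Snord43 the T cell ratio was 68.4. Over all libraries the share was higher in 4 of 4 footprint libraries than in any RNA-seq library (exact two-sided permutation test, p = 0.0286, the smallest that 4 against 4 allows). Assay, RNA selection, fragment size and read layout changed together, and their parts in this difference cannot be told apart. B cells had 0.647 ± 0.441 times the T cell share in footprints (exact permutation p = 0.667) and 0.78 ± 0.122 times in RNA-seq (exact permutation test, at the smallest p that 2 against 2 allows). Without B cell footprint library 1 the footprint ratio was 0.944, and without library 3 it was 0.35, so the size of the B cell share rested on which library was used.

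The 42 H/ACA box genes, counted in the same way, took 0.679% and 2.08% in B cell footprints and 2.18% and 4.06% in T cell footprints. C/D box counts were thus 0.246, 0.217, 0.251 and 0.101 times the H/ACA box counts in these 4 libraries. In RNA-seq they were 2.97, 2.36, 2.67 and 1.88 times the H/ACA box counts. H/ACA box genes outnumbered C/D box genes in counts in every footprint library and the reverse held in every RNA-seq library.

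**Figure D1:**
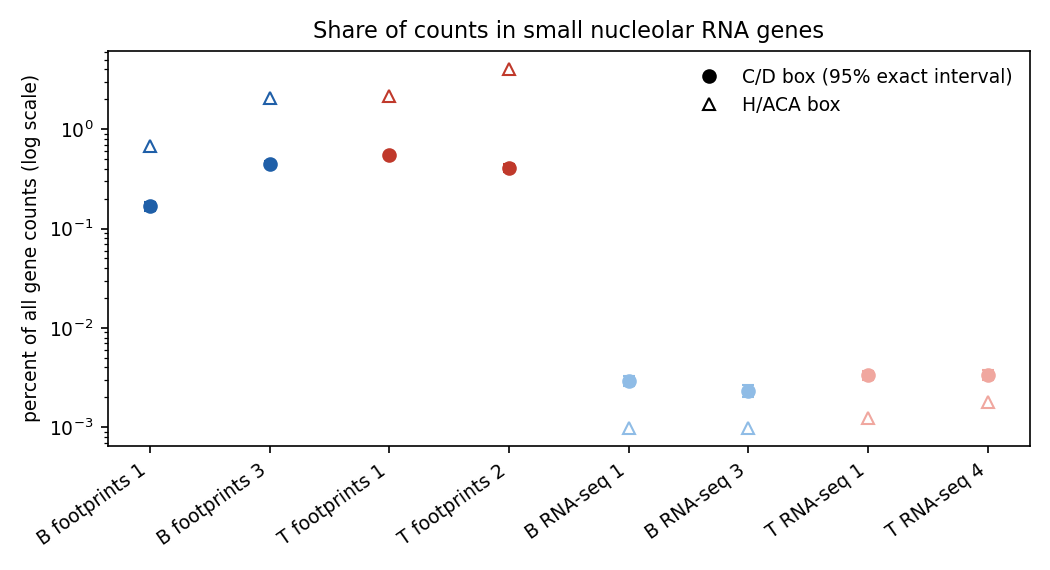
Percent of all gene counts (log scale) in C/D box genes (filled circles, with 95% exact binomial intervals that are mostly smaller than the symbol) and H/ACA box genes (open triangles) in each of the 8 libraries. Footprint libraries sit between 0.167 and 0.548% for the C/D box class and RNA-seq libraries between 0.00234 and 0.00339%, and the order of the classes is opposite in the assays.

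A single gene led the footprints. Snord43 (chr15:80082859-80082906, 48 bases, inside the ribosomal protein gene Rpl3) is a guide snoRNA for ribosomal RNA methylation. It had 116 and 390 footprint counts in B cell libraries 1 and 3 and 2003 and 251 in T cell libraries 1 and 2, which were 29.3%, 37.1%, 58.2% and 45.1% of the C/D box counts. In RNA-seq its counts were 0 and 2 in the B cell libraries and 9 and 1 in the T cell libraries, at most 2.68% of the class. It was thus the most counted member of every footprint library and a minor one in every RNA-seq library. Next in footprints came Snord17 (221 bases, inside Snx5) with 640 counts, Snord87 (74 bases, inside both Snhg6 and Mcmdc2) with 410 and Snord118 with 296. The 3 most counted members took 58.3 to 75.3% of the class in footprints.

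RNA-seq had other leaders. Snord104 (chr11:106500991-106501063, 73 bases, inside the noncoding Gm36220) had 420 RNA-seq counts and 14 footprint counts. Snord49a in 2410006H16Rik had 106 RNA-seq counts, Snord55 had 92 and Snord72 in Rpl37 had 86. The 3 most counted members of each RNA-seq library took 50.4 to 62.7% of the class and came from these 4 genes. Spearman's correlation of mean footprint CPM with mean RNA-seq CPM over the 41 detected members was 0.228, given as a description, since the members share libraries and many rest on few counts.

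**Figure D2:**
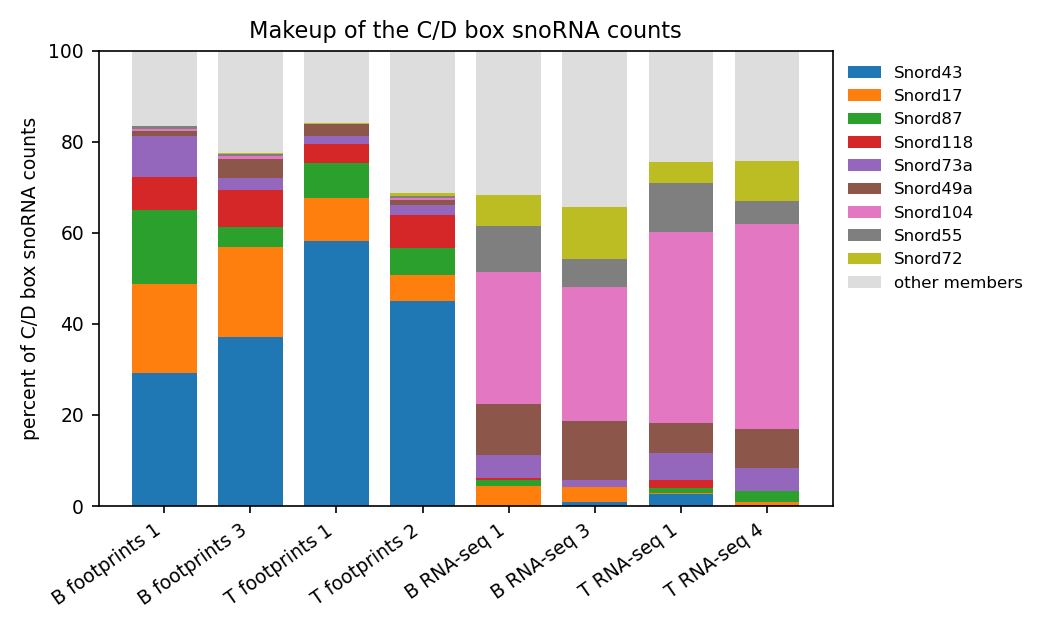
Stacked bars of the percent of C/D box snoRNA counts taken by 9 named members and by all other members in each library. Snord43 fills 29.3 to 58.2% of the footprint bars and at most 2.68% of the RNA-seq bars, where Snord104 is the widest band.

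Footprint counts exceeded RNA-seq counts for most members that could be tested. The fit set footprints against RNA-seq within each cell type in edgeR over all 8 libraries, with Benjamini-Hochberg adjustment over 13227 genes and a threshold of 0.05. In B cells 23 of 29 tested members were higher in footprints and 0 were lower, where 6.51% of all genes tested were higher and 12.3% lower. In T cells 25 of 29 were higher and 0 lower, against 8.91% and 18.6%. The median log2 difference of the 29 was 6.66 in B cells and 7.05 in T cells, against -0.44 and -0.54 for all genes tested. Members without RNA-seq counts and with more than 3 footprint counts, 5 in B cells and 4 in T cells, were then set at their bounds. The medians were then 6.66 and 7.01. Snord66, with no RNA-seq count and 2 footprint counts in B cells, kept its fitted value there. The filter admits a gene by CPM, and a footprint CPM comes from few counts. Only Snord104, Snord49a, Snord55 and Snord72 were high enough in RNA-seq to enter without their footprints. Of these, Snord49a passed in both cell types, Snord55 in B cells alone, and Snord104 and Snord72 in neither. The rest of the 29 needed the footprints in which they were then compared. The shares called and the medians were thus largely set by the filter and are no measure of all 99. Snord58b, Snord53 and Snord42b, detected by RNA-seq alone, fell under the filter. A single footprint count also stood for more CPM than most members had in RNA-seq, so a lower call was hardly attainable. The other 12 detected members fell under the filter, and with every gene of at least 1 count kept, 29 of 41 were higher in B cells and 31 of 41 in T cells, where 3.74% and 5.19% of all genes in that fit were. The call rested partly on B cell footprint library 3, without which 14 were higher, against 3.56% of all genes. In T cells 17 were higher without footprint library 1, against 2.85% of all genes. Both fits had 0 members lower.

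Snord43 stood at 471 and 1770 CPM in B cell footprints and 3030 and 1670 CPM in T cell footprints. Its RNA-seq values were 0 and 0.221 CPM in B cells and 0.958 and 0.111 CPM in T cells. All 4 footprint libraries lay above all 4 RNA-seq libraries. The log2 difference in T cells was 12.02 ± 1.13 (SE, n = 2, edgeR adjusted p = 0.000405). In B cells, with 2 RNA-seq counts in all, the ratio of summed counts per scaled total was 9700, with a counting interval of 2670 to 80300.

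Snord87 had 264 and 214 CPM in B cell footprints, 401 and 220 CPM in T cell footprints, and from 0 to 0.78 CPM in the 4 RNA-seq libraries. Its log2 difference was 9.90 ± 0.73 in B cells (SE, n = 2, edgeR adjusted p = 0.000193) and 9.13 ± 0.67 in T cells (edgeR adjusted p = 0.000195), nearly the same in both cell types. Snord17 had 313 and 941 CPM in B cell footprints against 1.36 and 0.772 CPM in RNA-seq, a log2 difference of 9.16 ± 0.78 (SE, n = 2, edgeR adjusted p = 0.000344). In T cells it had 492 and 207 CPM in footprints and 3 RNA-seq counts in all, a ratio of 2690 with a counting interval of 912 to 13100. Both genes rose in footprints in both cell types without overlap.

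The members without a containing gene in RefSeq behaved alike in direction. Snord118 had 114 and 386 CPM in B cell footprints and 215 and 273 CPM in T cell footprints, with a single RNA-seq count in B cells and 6 in T cells. The T cell log2 difference was 9.41 ± 0.90 (SE, n = 2, edgeR adjusted p = 0.00043), and the B cell ratio was 4330 with a counting interval of 762 to 173000. Snord13 had 40.6 and 27.3 CPM in B cell footprints and 60.5 and 46.7 CPM in T cell footprints, with no RNA-seq count in B cells and 1 in T cells. It was at least 202-fold higher in footprints in B cells, taking 3 counts over both RNA-seq libraries as the bound. For Snord89, the third member without a containing gene, 34 footprint counts stood against 6 RNA-seq counts. Each of the 3 passed the test in both cell types.

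Other members had no RNA-seq count at all. Snord85 had 28.4 and 200 CPM in B cell footprints and 83.2 and 167 CPM in T cell footprints, at least 680-fold and 765-fold above RNA-seq. Snord59a, inside Atp5b, had 16.3 and 90.9 CPM in B cell footprints and 119 and 173 CPM in T cell footprints, at least 319-fold and 896-fold above. Snord61, inside Rbmx, was at least 104-fold and 137-fold above. Atp5b and Rbmx are protein-coding genes for an ATP synthase subunit and a splicing regulator.

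The smallest differences that passed in B cells were those of Snord35a (4.74 ± 0.83), Snord7 (4.40 ± 1.13) and Snord55 (3.06 ± 0.83, SE, n = 2, edgeR adjusted p = 0.036). In T cells they were those of Snord83b (5.54 ± 0.84), Snord49a (5.21 ± 0.87) and Snord7 (4.69 ± 0.72). The calls of Snord55 and Snord7 in B cells were lost without any single B cell library, with log2 differences of 2.37 to 3.78 and 3.72 to 4.88. Snord35a lost its call without either B cell RNA-seq library (4.67 and 4.88), Snord49a and Snord83b theirs in B cells without footprint library 3 (2.28 and 3.46), and Snord49a and Snord7 theirs in T cells without footprint library 1 (3.98 and 3.37). None of these values changed direction.

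Snord104 was the exception among well-counted members. It had 8.13 and 31.8 CPM in B cell footprints against 9.10 and 6.84 CPM in RNA-seq, and 3.02 and 20 CPM in T cell footprints against 15.0 and 15.3 CPM. Its log2 difference was 1.29 ± 0.73 in B cells (SE, n = 2, edgeR adjusted p = 0.239) and -1.14 ± 0.81 in T cells (edgeR adjusted p = 0.32), so the assays did not differ beyond the spread between libraries. Snord72 gave 0.84 ± 1.26 in B cells (edgeR adjusted p = 0.666) and 2.59 ± 0.84 in T cells (edgeR adjusted p = 0.0509), the latter passing with RLE scaling, DESeq2, no filter or TMM without small RNA classes. Snord55 gave 1.28 ± 0.95 in T cells (edgeR adjusted p = 0.338). Snord58b, inside Rpl17, was counted in RNA-seq alone, with 54 RNA-seq counts, 0.993 to 1.78 CPM in each library, and 0 counts in all 4 footprint libraries. A count of 0 allows up to 4.54 CPM in the deepest footprint library, above its RNA-seq level, so a lower footprint level was not detectable at this depth.

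**Figure D3:**
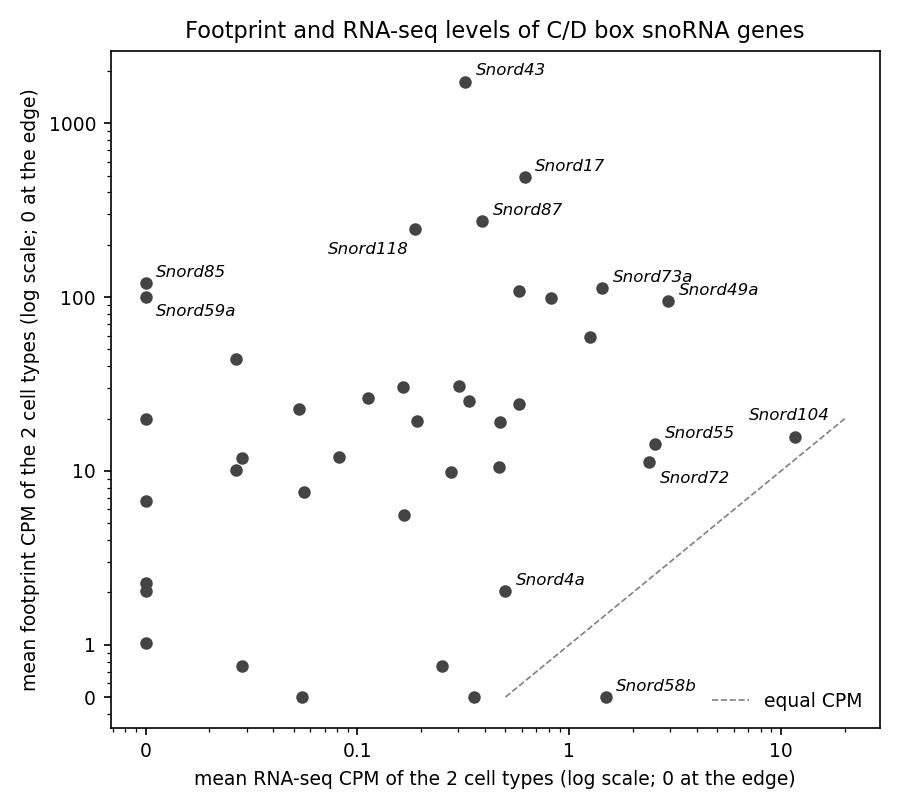
Mean footprint CPM against mean RNA-seq CPM for the 41 detected members, on log axes with genes at 0 placed at the edge; the dashed line marks equal CPM. Most points lie far above the line, Snord43 highest, while Snord104 lies near it and Snord58b has no footprint count.

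**Figure D4:**
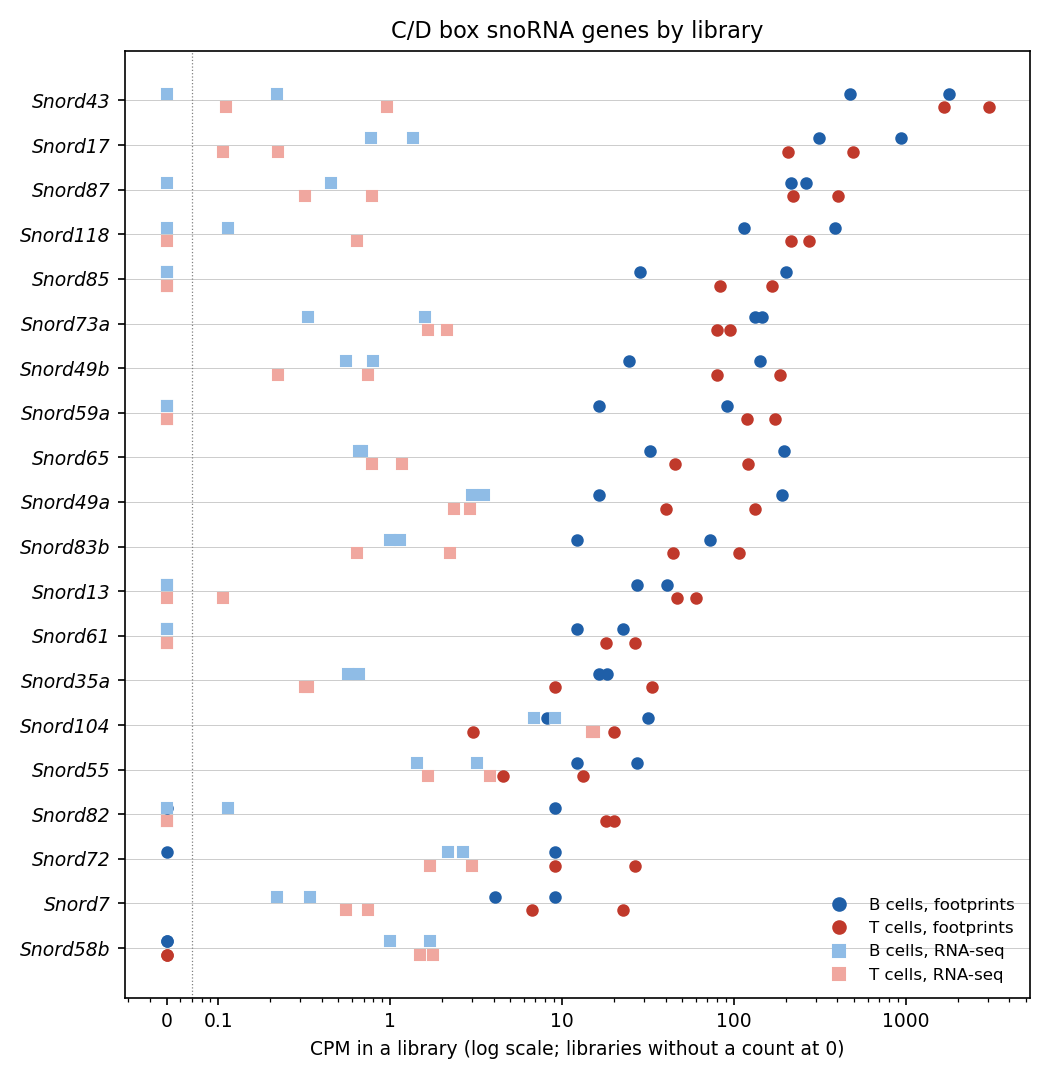
CPM (log scale, 0 at the left edge) of the named members in each library, with circles for footprints, squares for RNA-seq, blue for B cells and red for T cells. Footprint values lie to the right of RNA-seq values for most genes, and the B and T cell footprint values of most genes interleave.

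The size of the footprint excess was not shown to differ between B and T cells. In the interaction of assay and cell type 0 of 29 members passed, as did 0.0% of all genes tested (edgeR adjusted p). At an unadjusted p under 0.05 there was 1 member in edgeR and 2 in DESeq2, against 748 of 13227 genes with either tool.

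B and T cells were compared next within each assay. In footprints 0 of 12 tested members passed in edgeR, where 13.2% of 4771 genes did. At an unadjusted p under 0.05 there was 1 in edgeR and 0 in DESeq2, against 1132 and 789 of the 4771 genes. The median log2 difference, B minus T cells, was -0.18 against 0.02 for all genes. In RNA-seq 0 of 6 tested members passed, where 18.5% of 13929 genes did. Of the 6, 1 had an unadjusted p under 0.05 in both edgeR and DESeq2, against 4522 and 4203 of the 13929 genes. These are bulk libraries, in which fewer cells that express a gene and less RNA per cell cannot be told apart.

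Snord59a had the largest difference in footprints. Its values of 16.3 and 90.9 CPM in B cells lay below the 119 and 173 CPM of T cells, without overlap. The log2 difference was -1.39 ± 0.63 (SE, n = 2, edgeR unadjusted p = 0.0497, adjusted p = 0.21), which did not pass. Snord43 gave -1.01 ± 0.63 (edgeR adjusted p = 0.393), with B cell library 3 at 1770 CPM inside the T cell range of 1670 to 3030 CPM. Snord17 gave 0.87 ± 0.55 (edgeR adjusted p = 0.408), its 941 CPM in B cell library 3 above both T cell values and its 313 CPM in library 1 between them. The other 9 tested members, with log2 differences from -0.73 to 0.70, had standard errors of 0.40 to 0.78, so differences of that size were not resolved.

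The B cell footprint libraries differed from each other for most members. For 19 members with enough counts, CPM in library 3 was a median of 3.76 times that in library 1, with 16 of 19 above 1 and a range of 0.671 to 11.7. Between T cell libraries 1 and 2 the median ratio was 0.738, with 8 of 20 above 1. Without B cell library 1, Snord65 (1.52) and Snord17 (1.45) were called higher in B cells, as were 7.25% of all genes in that fit. Without library 3, where 7.28% of all genes were called lower in B cells, so were 6 members, Snord59a (-3.06), Snord49a (-2.53), Snord49b (-2.50), Snord83b (-2.35), Snord43 (-2.28) and Snord85 (-1.97), and for Snord49a this turned the direction of the value with all libraries, 0.15 ± 0.78. Library 3 had lower summed B cell markers than library 1 (10300 against 16100 CPM), higher T cell markers (268 against 97.5 CPM) and higher myeloid markers (582 against 158 CPM). Within the myeloid list S100a8 and S100a9 were higher in library 3 (164 and 295 CPM against 4.06 CPM each). Lyz2 (45.5 against 8.13 CPM) and Cd68 (27.3 against 8.13 CPM) were higher there too. Csf1r (27.3 against 93.5 CPM) and Adgre1 (22.7 against 40.6 CPM) were lower. The part of these markers in the differences was not tested.

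**Figure D5:**
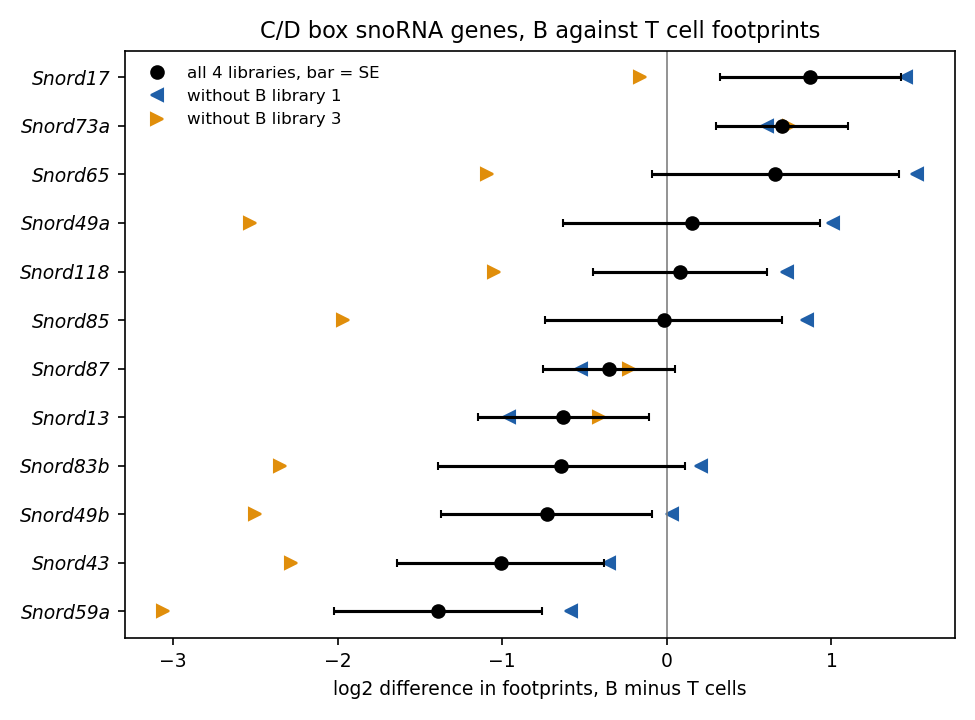
Log2 difference in footprints, B minus T cells, of the 12 tested members with all 4 libraries (black, bars are standard errors) and without B cell library 1 or 3 (triangles). Snord43, Snord59a, Snord73a, Snord87 and Snord13 stay on their side of 0 without either B cell library, while Snord49a moves to -2.53 without library 3.

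Snord73a, inside the ribosomal protein gene Rps3a1, was the member least moved by that choice. It had 146 and 132 CPM in B cell footprints, above the 95.3 and 80.0 CPM of T cells. In RNA-seq the order was opposite, with 1.59 and 0.331 CPM in B cells below 2.13 and 1.67 CPM in T cells. Neither difference passed, at 0.70 ± 0.40 in footprints (SE, n = 2, edgeR adjusted p = 0.349) and -0.93 ± 0.76 in RNA-seq (edgeR adjusted p = 0.477), and the interaction was 1.61 ± 0.71 (edgeR unadjusted p = 0.0516, adjusted p = 0.875).

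In RNA-seq Snord104 came closest to a difference, with 9.10 and 6.84 CPM in B cells below 15.0 and 15.3 CPM in T cells. The log2 difference of -0.87 ± 0.25 (SE, n = 2, edgeR unadjusted p = 0.0185, adjusted p = 0.078) did not pass. Of the other tested members, Snord49a gave 0.37 ± 0.36, Snord72 0.09 ± 0.46, Snord55 -0.20 ± 0.64 and Snord58b -0.22 ± 0.48. None of these passed.

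Snord17 took a larger part of the class in B cells, 19.4 and 19.7% of C/D box footprint counts in the B cell libraries against 9.44 and 5.57% in the T cell libraries. These shares also fall where Snord43 takes more of the total. Its RNA-seq counts were 12 and 7 in the B cell libraries and 1 and 2 in the T cell libraries, too few to enter the main test, and without the filter its log2 difference was 2.67 ± 0.76 (SE, n = 2, edgeR adjusted p = 0.118). Snx5, the sorting nexin gene that contains it, was higher in B cells in both assays. Snx5 footprints were 475 and 464 CPM in B cells against 188 and 100.0 CPM in T cells, a log2 difference of 1.71 ± 0.41 (SE, n = 2, edgeR adjusted p = 0.016). Without T cell footprint library 2 this was 1.4 and no longer passed (edgeR adjusted p = 0.201). In RNA-seq Snx5 stood at 983 and 759 CPM against 274 and 226 CPM, a log2 difference of 1.85 ± 0.22 (edgeR adjusted p = 0.0106). Strand was not known in the match of members to hosts, and reads of a host intron and of the snoRNA within it may not have been counted apart.

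Most other hosts did not pass between B and T cells. Of 55 hosts with counts, 38 were tested in footprints and 1, Snx5, was higher in B cells and 0 lower, against 8.38% and 4.8% of all genes. In RNA-seq 3 of 55 were higher and 0 lower, against 9.4% and 9.06%. Beside Snx5 these were the noncoding Snhg18 and 2700038G22Rik. Snhg18, which contains Snord123, had 51 counts in B cells and 1 in T cells, a ratio of 52.4 with a counting interval of 9.0 to 2110 (edgeR adjusted p = 0.0211). Its call was lost when B cell RNA-seq library 1 or library 3 was left out, at log2 differences of 5.08 and 5.75. For 2700038G22Rik the log2 difference was 1.60 ± 0.36 (SE, n = 2, edgeR adjusted p = 0.0453), a call lost without any single RNA-seq library, with no filter and with all 8 libraries in a single model (edgeR adjusted p from 0.0616 to 0.244). The RNA-seq count fell to 1 without either B cell library. Gas5 and Snhg1, noncoding RNAs known as snoRNA hosts, gave -0.67 ± 0.45 and -1.27 ± 0.52 in footprints (edgeR adjusted p = 0.449 and 0.161) and -0.25 ± 0.23 and -0.45 ± 0.34 in RNA-seq. Rpl3 gave 0.21 ± 0.39 in footprints and -0.41 ± 0.22 in RNA-seq, and did not pass in either assay.

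Hosts were more often lower than higher in footprints. For members a lower call was hardly attainable at this footprint depth, so the directions of the 2 sets cannot be compared. Against RNA-seq, 3 of 55 hosts were higher and 25 lower in B cells, and 3 were higher and 24 lower in T cells. Of all genes tested 6.51% were higher and 12.3% lower in B cells, while in T cells 8.91% were higher and 18.6% lower. The hosts had median log2 differences of -1.53 and -1.41, beside -0.44 and -0.54 for all genes. Of 14 ribosomal protein hosts, 13 were lower in each cell type, with medians of -3.08 and -3.19. Rpl3 stood at 301 and 377 CPM in B cell footprints against 2630 and 2080 CPM in RNA-seq, and at 358 and 240.0 CPM against 3480 and 3000.0 CPM in T cells. Its log2 difference was -2.80 ± 0.35 in B cells (SE, n = 2, edgeR adjusted p = 0.00171) and -3.42 ± 0.36 in T cells (edgeR adjusted p = 0.000611), while Snord43 inside it rose.

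Members of the same host were unequal. In Rpl3, counts per base of Snord43 were 62.0, 39.1, 111 and 25.2 times those of Snord83b in the 4 footprint libraries, and 0, 0.356, 2.41 and 0.0802 times in the 4 RNA-seq libraries. In 2410006H16Rik, Snord49b was 1.48, 0.726, 1.38 and 1.97 times Snord49a per base in footprints and 0.0757 to 0.313 times in RNA-seq. The order of each pair thus differed between footprints and RNA-seq in most libraries. In Rpl13a, Snord32a, Snord34 and Snord35a had 31, 20 and 19 footprint counts and Snord33 had none in any library. In Wdr43, Snord92 had 11 footprint counts and 0 RNA-seq counts, and Snord53 had 0 and 13. Over the 16 hosts with several members, 4 had counts for all of them, 6 for some and 6 for none. The last were Snhg14, Snhg16, Hspa8, Gnl3, Rabggtb and Rack1.

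Genes of snoRNA-binding and processing proteins were compared between the cell types as well. Of 33 such genes, 0 of 24 tested in footprints passed in either direction in edgeR, against 13.2% of all genes. There was 1 at an unadjusted p under 0.05 in edgeR, against 1132 of all 4771 genes. In RNA-seq 1 of 33 was lower in B cells and 0 higher, against 9.06% and 9.4% of all genes. It was Imp3, a subunit of the U3 processing complex, at -0.73 ± 0.15 (SE, n = 2, edgeR adjusted p = 0.0341), which was lost without B cell library 1 or 3, without T cell library 1, with no filter or with all 8 libraries in a single model (edgeR adjusted p from 0.0571 to 0.159). Among the core proteins, the methyltransferase gene Fbl gave 0.46 ± 0.46 in footprints, Nop58 -0.35 ± 0.39 and Snu13 -0.14 ± 0.50. Nop56 stood at 69.1 and 90.9 CPM in B cell footprints and 177 and 173 CPM in T cells, a log2 difference of -1.09 ± 0.40 (SE, n = 2, edgeR adjusted p = 0.118) that did not pass. In RNA-seq the 4 core genes lay between -0.23 and 0.06.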

How the data were processed

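The authors deposited 1 table a library, with whole-number read counts per gene and no scaling. FastQC, TopHat with Bowtie2, HTSeq and mm10 are listed, without versions, in the submitters' processing notes. Strand use, annotation release and handling of multiply matching reads were not stated in the sources used. Of the count columns 0 were left unused. Symbols came from a names table, in which 2 IDs are both Snord80. Snord3a was not analysed here, and some host and marker genes are not reported here. Members, gene lists and tests were chosen with earlier results of these data known.

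The main test was edgeR 4.0.16 in R 4.3.3 (quasi-likelihood, TMM, filterByExpr at a minimum count of 10 and total of 15, Benjamini-Hochberg over all genes tested, threshold 0.05). B and T cells were compared in the 4 libraries of each assay, and assays in a model of all 8. The ± sign gives the standard error of log2 differences and the SD of shares, with n = 2. Bounds against a group without counts take 3 counts over that group. Ratio intervals are exact conditional binomial intervals at 95%. Host genes were matched by span alone, since the RefSeq table gives no strand, although a match on the same strand had been planned. Named were the 12 members highest in footprints, the 6 highest in RNA-seq, the 6 largest and 3 smallest assay differences that passed, any that passed between B and T cells, Snord118 and Snord13, and hosts of these; others were chosen after their values were seen. The scripts were tested on simulated data. Alternatives were RLE scaling, DESeq2 1.42.0, other filters and scaling genes, the library number as a block, and the omission of each library. TMM without the RefSeq small RNA classes was added after seeing the data.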

Additional observations from a re-analysis of the deposited data

How the results depend on the processing

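Of the recomputed values of single genes named in the text, 782 kept their direction and side of the threshold, 13 gained a call, 31 lost theirs and 35 changed sign, none of them a value that had passed with all libraries. Snord49a without B cell footprint library 3 both changed sign and gained a call. Where a group kept a single library, it was assumed to vary like the other groups. Leaving out each library in turn, the log2 difference in B against T cell footprints ran from -2.53 to 1.24 for Snord49a, -0.16 to 1.5 for Snord17, -1.05 to 0.73 for Snord118, -1.09 to 1.52 for Snord65, -2.50 to 0.03 for Snord49b, -2.35 to 0.21 for Snord83b, -1.97 to 0.85 for Snord85, -0.67 to 0.03 for Snord87, -0.01 to 0.40 for Rpl3 and -0.26 to 0.01 for Snu13. In RNA-seq it ran from -0.87 to 0.52 for Snord55, -0.65 to 0.12 for Snord58b, -0.26 to 0.53 for Snord72, -0.85 to 0.09 for Snhg1, -0.09 to 0.02 for Fbl, -0.39 to 0.07 for Nop56 and -0.14 to 0.24 for Snu13. Footprints against RNA-seq ran from -0.0003 to 1.97 in B cells and -2.23 to 0.46 in T cells for Snord104, and in B cells from -6.74 to 1.88 for Snord72 and -1.79 to 7.21 for Snord82, whose lone B cell footprint library then had no count. With library sizes set to the C/D box sum, Snord13 gave 0.25, Snord85 0.05, Snord87 0.59, Nop58 0.35 and Snu13 0.64 in footprints, and Snu13 gave -0.00043 in RNA-seq with all 8 libraries in a single model.

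Leaving out each library gave 0 to 2 members higher and 0 to 6 lower in B cell footprints, 14 to 21 higher in B cell footprints than in RNA-seq, 0 to 1 hosts higher and 0 to 3 lower in B cell footprints, 1 to 2 hosts higher in B cell RNA-seq and 0 to 1 protein genes lower there. In the 4 B cell libraries alone, 14 members were higher in footprints with the library number as a replicate block, 15 without it and 14 with crossed numbers, chosen after seeing the data. Of all genes in these fits, 6.7%, 7.25% and 7.85% were higher. Same-numbered B cell libraries had deviations correlated at -0.142 over 2282 genes, which with 2 libraries a group cannot show whether they are pairs. The sources do not say that equal numbers mark the same mice, and the main fits did not treat them as pairs. DESeq2 called 1 host lower in B cell RNA-seq, against 11.5% of all genes. Without a filter 0 protein genes were lower there, against 3.71% of all genes. Without Snord43 the mean share was 0.227% in T cell footprints and 0.00331% in T cell RNA-seq, and their ratio 68.4. The cause of these changes was not tested. Footprint depth limits the 9 of 38 members with under 10 counts there.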
